A study of Mus musculus with 23 samples.

Results

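Lysosomal hydrolases and membrane proteins were described by 9 genes, Ggh, Cpq, Ctsb, Ctsd, Ctsl, Hexa, Gusb, Lamp1 and Lamp2. Every probe set was taken whose annotation gave 1 of these symbols alone, which found 14 of the 12488 probe sets on the array. Ctsb had 4 of them, Hexa and Lamp2 had 2 each, and the other 6 genes had 1. The genes had been proposed with results of these arrays known, among them the low values of newly transcribed against amplified total RNA, in which Ggh and Cpq lay near the bottom of all probe sets. Differences between the kinds of RNA that involve the newly transcribed arrays are therefore given as a description. Which other values were weighed is not stated in the sources used here, so the tests in the other comparisons may not be independent of the choice either.

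The 23 arrays held RNA of primary fibroblasts from mouse embryos of stage E14.5 (C57/BLACK6), all of them ATF1 -/+ by their label, so that no group had the intact genotype. All cultures were starved for 48 h in 1% serum. They were then kept for 2 h with 200 µM 4-thiouridine and radioactive cytidine in 1% serum, called starved here, or in 10% serum, called treated here. 4-thiouridine resembles uridine and enters RNA while it is being transcribed. RNA made in those 2 h can be captured through its thiol groups on an organomercurial matrix, and this fraction is called newly transcribed RNA. There were 3 kinds of RNA, with 4 arrays per serum condition for newly transcribed RNA, 4 for total RNA, and 3 starved and 4 treated arrays for amplified total RNA. The titles call the arrays biological replicates, and only the titles tell total from amplified total RNA, since a linear amplification is mentioned in the label protocol of every sample. The words unamplified and after amplification, used below for total and amplified total RNA, follow these titles alone.

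Lysosomes are acidic compartments in which hydrolases break down proteins, glycans, lipids and nucleic acids delivered by endocytosis and autophagy. Most soluble hydrolases are tagged with mannose 6-phosphate in the Golgi and carried by its receptors, while the heavily glycosylated LAMP proteins make up much of the lysosomal membrane. Many of the genes carry a palindromic promoter element, CACGTG at its core, that is bound by TFEB, a transcription factor held in the cytoplasm when growth factors and amino acids keep mTOR active. In growing fibroblasts several cathepsins are also secreted, and the Ctsl product has long been known as a major excreted protein of transformed fibroblasts.

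Promoter sequences in the RefSeq tables used here (GRCm38.p6) matched 6 of the 9 genes, Ctsd, Ctsl, Gusb, Hexa, Lamp1 and Lamp2. In the 250 bases before the start, CACGTG, which reads the same on both strands, was found in 3 of these 6 (50%), namely Ctsd, Ctsl and Lamp1. All 250 bases of the Ctsl window lie inside the gene as annotated in the same build, so its match is not upstream of the annotated gene. CACGTG was found in 1854 of 27025 genes (6.86%) when windows of the same length were searched for all of them. Other lysosomal lists, described below, also held it. It was found in 11 of 40 hydrolases and luminal proteins, 4 of 16 membrane proteins and 2 of 12 proton pump genes with a promoter sequence. For sorting genes it was 6 of 17, and for TFEB family and autophagy genes 2 of 17. The windows of Gusb, Hexa and Lamp2 did not hold these letters. A match is a string of letters and not a measured binding site. The windows of Ctsd (chr7:142387828-142388077, minus strand) and Lamp1 (chr8:13158911-13159160, plus strand) are shown because they hold more than 1 match and belong to a soluble hydrolase and a membrane protein. They run 5′ to 3′ with the matches in capitals.
Ctsd: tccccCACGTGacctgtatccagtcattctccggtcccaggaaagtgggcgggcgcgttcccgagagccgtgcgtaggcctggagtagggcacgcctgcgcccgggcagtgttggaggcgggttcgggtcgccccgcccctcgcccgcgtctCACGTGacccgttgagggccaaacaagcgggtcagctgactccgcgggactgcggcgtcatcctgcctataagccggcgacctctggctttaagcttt
Lamp1: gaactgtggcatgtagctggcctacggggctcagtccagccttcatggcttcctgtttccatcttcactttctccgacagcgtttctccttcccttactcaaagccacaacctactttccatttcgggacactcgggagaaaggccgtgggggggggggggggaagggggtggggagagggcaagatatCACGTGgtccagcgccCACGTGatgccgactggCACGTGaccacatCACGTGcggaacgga
The Ctsd matches began 245 and 98 bases before the start, and the 4 Lamp1 matches began 61, 45, 28 and 15 bases before it.

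Levels are given as log2(intensity + 16) after quantile normalisation, a step that gives all arrays the same distribution of values. The added 16 understates the change of dim probe sets, which touches Ggh and Cpq most among the genes with 1 probe set: the deposited intensities of Ggh ran from 17 to 1669.1 over the 23 arrays, with a median of 78.4, and those of Cpq from 15.3 to 926.4. A probe set of Ctsb (162271_f_at) and one of Hexa (162488_at) were dimmer still, with 28.3% and 29.43% of all probe sets below them. Median deposited intensities were 24.2 to 72.05 per newly transcribed array, 20 to 54.2 per total RNA array and 7.3 to 75.2 per amplified array. The 3′ control probe set of GAPDH stood above the 5′ one by 1.46 to 3.36 on the log2 scale on newly transcribed arrays. The same difference was 0.70 to 2.19 on amplified arrays and -0.32 to -0.06 on total RNA arrays. The range of total RNA thus met neither of the others, while those of newly transcribed and amplified RNA overlapped. The newly transcribed and amplified arrays fell into 2 clusters by whole profile, each with starved and treated arrays. For newly transcribed RNA, numbers 1 and 4 in either serum were in cluster 1. For amplified RNA, cluster 1 had numbers 1 and 3 of the starved and 1 and 4 of the treated arrays. All remaining newly transcribed and amplified arrays were in cluster 2.

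Fibroblast markers were bright, 9 of 10 of them in the brightest 25% of probe sets in every group. The exception was Vim, whose probe set had 38.2% of all probe sets below it. Markers of macrophages, cells rich in lysosomes, were also present: 8 to 11 of 14 lay in the brightest 25%, depending on the group. Lyz2, Cd14, Ctss and Mpeg1 were among the bright ones, while Itgam and Fcer1g were dim. Cd68, Ctss and Laptm5 are lysosomal genes that macrophages hold at high levels, and were counted among these markers and not in the lysosomal lists below. The summed normalised intensity of the 14 was 2959 to 9748 on newly transcribed, 5219 to 13241 on total and 5634 to 16011 on amplified arrays. That of the 10 fibroblast markers was 7053 to 14504 on newly transcribed, 20455 to 27199 on total and 15852 to 22823 on amplified arrays, so that newly transcribed arrays lay below both other kinds without overlap. With serum, 14 of 14 macrophage markers were higher in total RNA (median 0.22) and in amplified total RNA (median 0.37). In newly transcribed RNA 11 were higher and 3 lower (median 0.23). None was called. The fibroblast medians with serum were -0.01, 0.10 and -0.09 in the same order. The part of these markers in the lysosomal levels was not tested, and fewer cells of a type and less RNA per cell cannot be told apart in bulk RNA.

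Ggh encodes gamma-glutamyl hydrolase, which removes the polyglutamate tails of folates. In newly transcribed RNA its log2 level was 6.44, 5.54, 5.51 and 5.45 on starved arrays 1 to 4 and 5.93, 5.40, 4.96 and 5.73 on treated arrays 1 to 4. In total RNA it was 6.21, 7.14, 7.77 and 7.08 starved and 6.51, 7.62, 7.79 and 7.21 treated. In amplified total RNA it was 9.0, 9.13 and 9.17 starved and 9.19, 9.19, 8.25 and 9.47 treated. Newly transcribed arrays were the lowest and amplified arrays the highest, and the amplified arrays did not meet either of the other kinds in the same serum. Starved newly transcribed array 1 was the exception among the low arrays and lay above the lowest total RNA array. The difference of newly transcribed from amplified total RNA was -3.36 ± 0.27 (SE, n = 7) starved, 10.3-fold lower, and -3.52 ± 0.32 (n = 8) treated, 11.5-fold lower. Of all tested probe sets, 0.00805% starved and 0.0242% treated had a lower difference. Against unamplified total RNA the difference was smaller, -1.31 starved and -1.78 treated.

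Cpq encodes carboxypeptidase Q, a metallopeptidase that cleaves amino acids from small peptides. Newly transcribed RNA gave 5.36, 5.36, 5.5 and 6.27 on the starved arrays and 5.59, 4.98, 5.20 and 6.16 on the treated ones. Total RNA gave 7.0, 8.40, 7.98 and 8.18 starved and 6.89, 8.24, 7.60 and 8.20 treated. On amplified arrays the level was 8.37, 7.75 and 8.95 starved and 8.63, 8.28, 7.34 and 8.72 treated. Every newly transcribed array lay below every array of the other 2 kinds, and total and amplified arrays overlapped. The difference was close to the same against both references: -2.73 ± 0.35 starved and -2.76 ± 0.37 treated against amplified, and -2.27 and -2.25 against unamplified total RNA.

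Among the cathepsins, Ctsl, a cysteine endopeptidase, had the tightest levels. Its newly transcribed values were 9.81, 9.85, 9.74 and 9.77 starved and 9.64, 9.24, 9.11 and 9.54 treated. Total RNA arrays ran from 10.64 to 10.96 starved and 10.65 to 11 treated, and amplified arrays from 10.70 to 11.32 and 10.50 to 11.27. Newly transcribed RNA was below both other kinds on all arrays, and the other 2 kinds overlapped. Against amplified total RNA the difference was -1.24 ± 0.19 starved and -1.61 ± 0.22 treated, and against total RNA -1.0 and -1.44.

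Ctsb, a cysteine protease with exopeptidase activity, gave a different picture on its brightest probe set (94831_at). Newly transcribed arrays ran from 8.79 to 10.65 starved and 8.21 to 10.57 treated, amplified arrays from 9.59 to 11.47 and 9.67 to 11.46, and total RNA arrays from 11.34 to 11.90 and 11.21 to 11.95. The newly transcribed and amplified arrays overlapped, at -0.89 ± 0.57 starved and -1.14 ± 0.59 treated. With the replicate number as a block, which pairs the treated arrays of the 2 kinds, the treated error of this probe set was 0.18 and it was called lower (limma adjusted p = 0.0097). Since the genes were proposed with this contrast known, its calls and p-values are a description only. Newly transcribed and total RNA did not overlap in either serum, at -1.93 and -2.02. Ctsd, the main aspartic protease of lysosomes, had newly transcribed levels of 9.87 to 11.62 starved and 10.15 to 11.66 treated, which overlapped with both references. Its differences from amplified total RNA were -0.40 ± 0.44 and -0.52 ± 0.37, the latter -0.52 ± 0.20 with the block (adjusted p = 0.12), and those from total RNA were -0.80 and -0.81.

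By their brightest probe sets, the glycosidases lay further below amplified total RNA than Ctsb and Ctsd in both sera, an order that was not tested. Gusb, beta-glucuronidase, which degrades glycosaminoglycans, ran from 6.43 to 8.27 starved and 7.08 to 7.77 treated in newly transcribed RNA. Amplified arrays ran from 8.20 to 9.51 and 8.40 to 9.57, so that the groups overlapped in starved cells and not in treated ones, with differences of -1.25 ± 0.49 and -1.55 ± 0.27. For Hexa, the alpha subunit of beta-hexosaminidase, which degrades GM2 ganglioside, the bright probe set (94840_at) gave 9.10, 9.23, 9.53 and 8.50 starved and 8.56, 8.93, 8.98 and 7.88 treated in newly transcribed RNA. Its amplified arrays were spread widely, from 9.05 to 10.88 starved and 8.95 to 11.18 treated. The differences were -1.07 ± 0.47 and -1.80 ± 0.50, with overlapping groups in both sera. Against unamplified total RNA the order was another one. Gusb had -1.10 starved and -1.23 treated and Hexa 94840_at -0.93 and -1.44, while Ctsb 94831_at was lower, at -1.93 and -2.02.

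The membrane proteins differed from each other. Lamp1, an abundant glycoprotein of the lysosomal membrane, had newly transcribed levels of 12.19, 11.59, 11.84 and 11.26 starved and 11.73, 10.87, 11.25 and 10.98 treated. Amplified arrays ran only from 11.99 to 12.14 and 11.92 to 12.17, and total RNA arrays from 11.91 to 12.11 and 11.69 to 12.14. The groups overlapped in starved cells, at -0.37 ± 0.24 against amplified total RNA. In treated cells newly transcribed RNA lay wholly below amplified total RNA, at -0.84 ± 0.21, but still met the total RNA arrays.

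Lamp2, whose isoforms include the receptor of chaperone-mediated autophagy, was measured by 2 probe sets that disagreed in size. Probe set 101590_at gave 10.30, 8.60, 8.58 and 9.62 starved and 9.93, 7.80, 8.28 and 9.69 treated in newly transcribed RNA, and its difference from amplified total RNA was -1.43 ± 0.52 and -1.44 ± 0.65. Probe set 100136_at gave 7.32, 6.53, 6.38 and 6.93 starved and 7.26, 5.86, 6.20 and 7.04 treated, with a difference of -2.99 ± 0.35 and -3.19 ± 0.37, 7.92-fold and 9.10-fold lower. The first overlapped with amplified total RNA, and the second did not overlap with either reference. Measured as 101590_at minus 100136_at on the same array, the gap was 2.41 ± 0.38 (SD, n = 8) on newly transcribed arrays, 1.53 ± 0.34 (n = 8) on total RNA arrays and 0.73 ± 0.67 (n = 7) on amplified arrays. For Ctsb the gap of 94831_at over 92256_at was 1.87 ± 0.51, 3.06 ± 0.15 and 1.49 ± 0.37 in the same order. A gap between probe sets carries no level of its own, but its change between kinds of RNA shows that the probe sets of both genes gave unequal differences. Where in the transcripts the probes lie was not given in the sources used here.

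**Figure D1:**
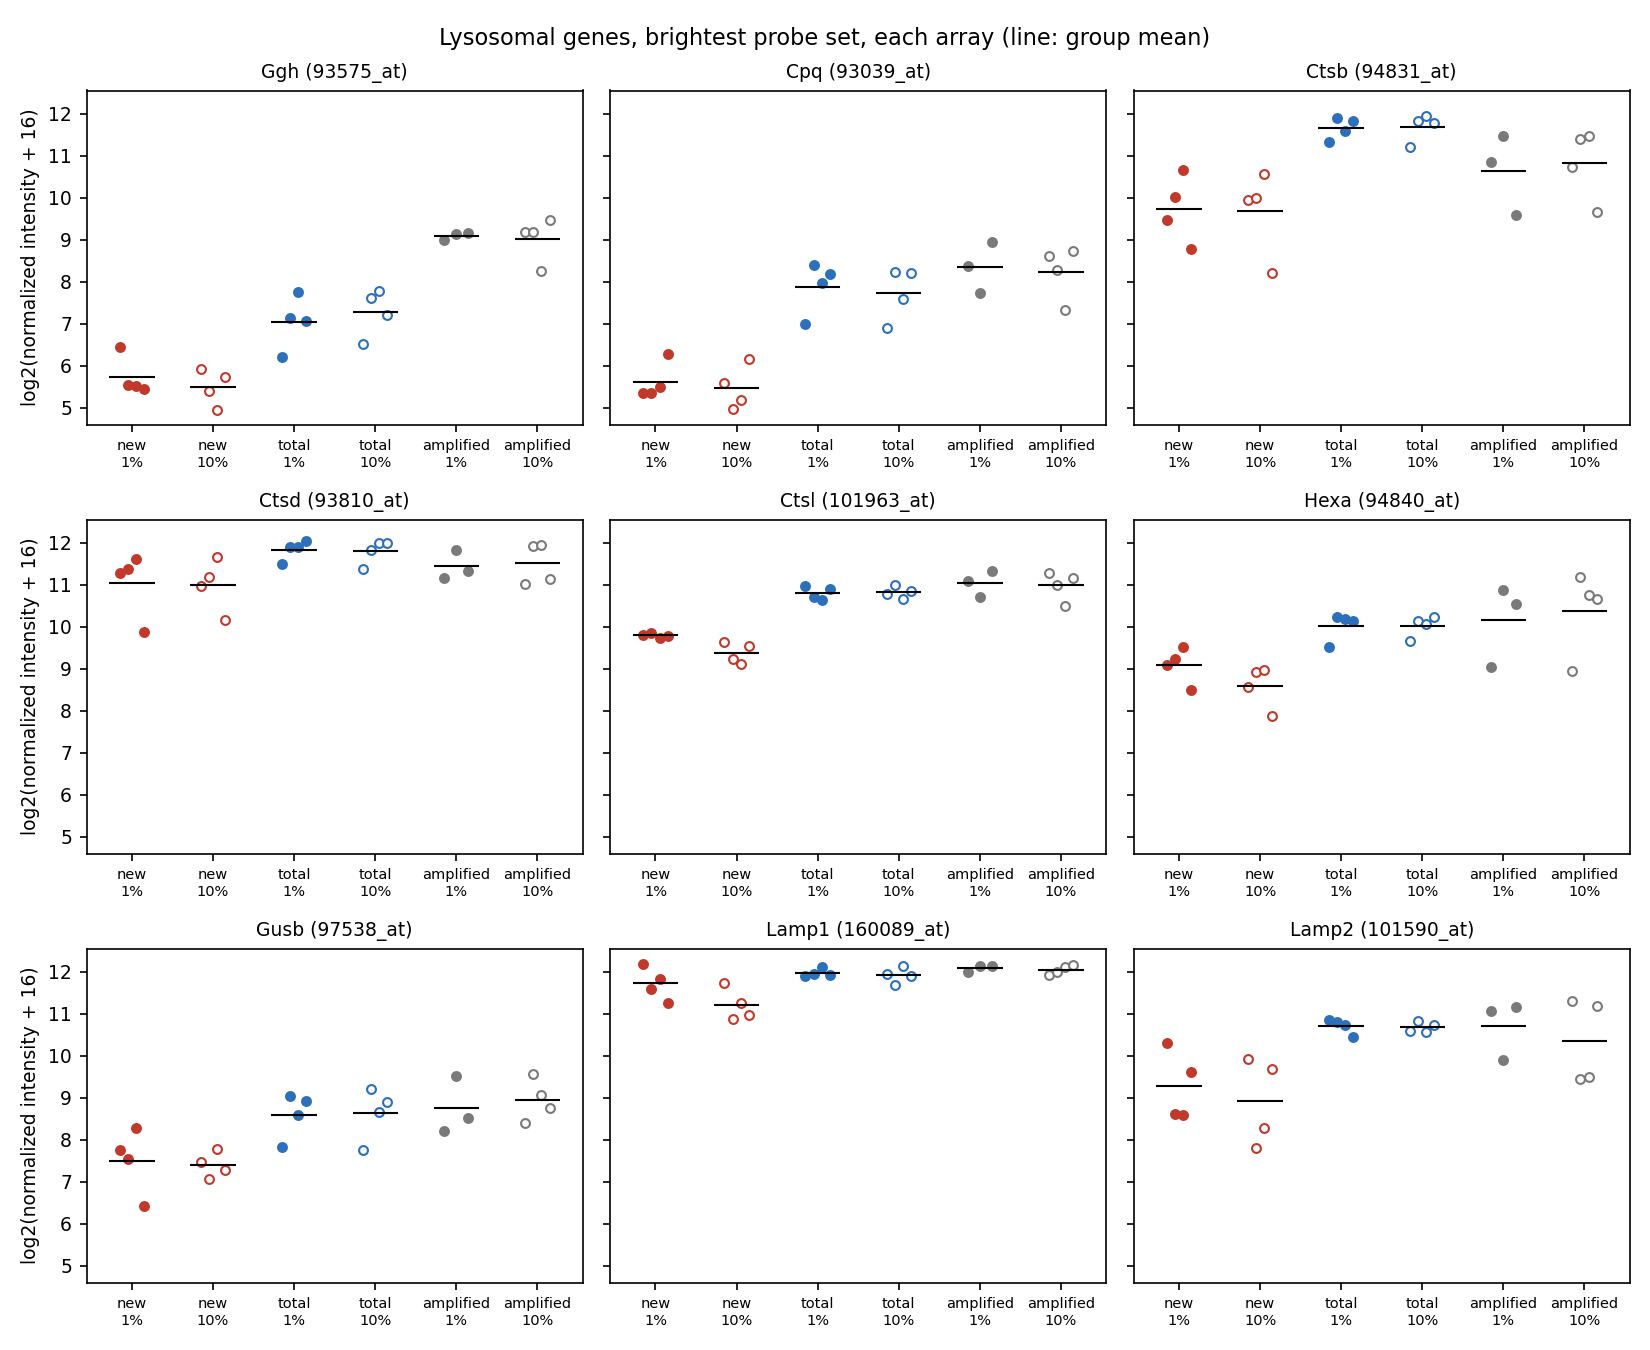
Level of each gene by its brightest probe set on all 23 arrays, as log2(normalised intensity + 16), for newly transcribed, total and amplified total RNA in 1% serum (filled) and 10% serum (open), with lines at group means. Newly transcribed arrays of Ggh, Cpq and Ctsl lie below the amplified ones in both sera, while those of Ctsd overlap with them.

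**Figure D2:**
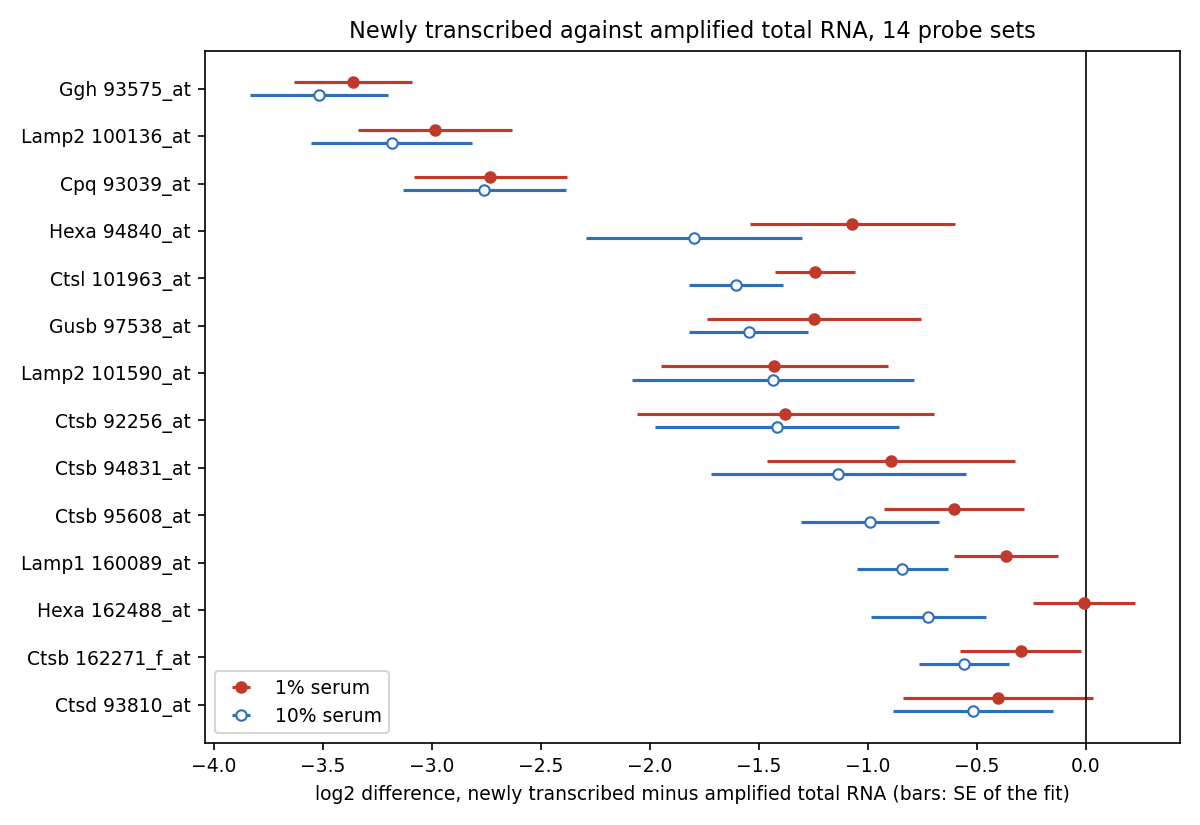
Log2 difference of newly transcribed minus amplified total RNA for the 14 probe sets in 1% serum (filled) and 10% serum (open), with bars of 1 SE of the fit. All points lie below 0, from -3.52 for Ggh in 10% serum to -0.01 for the dim Hexa probe set in 1% serum.

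All 14 probe sets had a negative difference from amplified total RNA in both sera, with medians of -1.16 starved and -1.43 treated, where the medians over all tested probe sets were -0.01 and 0.02. Limma's fit over 12422 probe sets, at an adjusted p under 0.05, called 4 of the 14 lower in starved cells (Ggh, Cpq, Ctsl and Lamp2 100136_at), beside 2% of all probe sets called lower and 3.17% called in either direction. In treated cells it called 5 (these and Gusb), beside 2.83% lower and 4.05% in either direction. Since the genes were proposed with this contrast known, nothing is read from these counts. The groups did not overlap for 4 of the 14 in starved cells, against 8.91% of all probe sets, and for 8 in treated cells, against 6.54%. The calls in starved cells rested on single arrays: none of the 14 was called without amplified starved array 2, or without newly transcribed starved array 2 or 3, and 1 was called without newly transcribed starved array 1. In treated cells the calls of Ggh, Cpq, Ctsl and Lamp2 100136_at held without each array in turn. That of Gusb was lost without amplified treated array 2 or 3 or without any 1 of the newly transcribed arrays, and with a pseudocount of 1. With the replicate number as a block, which pairs arrays 1 to 4 across the 2 kinds, 11 of 14 were called lower in treated cells, beside 10.1% of all probe sets. The block added Ctsb 94831_at and 92256_at, both Hexa probe sets, Lamp1 and Lamp2 101590_at to the 5. Amplified and newly transcribed RNA also differed in a few marker genes of both cell types, besides the GAPDH ratio given above, whose ranges overlapped. By sign, 7 of 10 fibroblast markers were lower and 3 higher in each serum. Of 14 macrophage markers, 11 were lower and 3 higher starved, and 12 and 2 treated. No marker was called higher. The fibroblast genes Col3a1 (-1.43 ± 0.27 starved, -1.79 ± 0.18 treated) and, in treated cells, Dcn (-3.16 ± 0.52) were called lower, as were the macrophage genes Adgre1 (-1.69 ± 0.29 and -1.57 ± 0.33) and, in treated cells, Ctss (-1.27 ± 0.25). Of these treated calls, Col3a1 held without each array in turn. Dcn was lost without amplified treated array 2 or 3 or newly transcribed treated array 3, and Adgre1 and Ctss without amplified treated array 2 or 3 or any 1 newly transcribed array. The part of these in the differences was not tested.

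Against unamplified total RNA 13 of 14 differences were negative in each serum, with medians of -0.97 starved and -1.34 treated, beside -0.00 and 0.02 for all probe sets. Newly transcribed arrays lay wholly below total RNA arrays for 5 of 14 in starved cells (1802 of all 12422 probe sets) and for 7 in treated cells (1496 of 12422). The 5 were Cpq, Ctsb 94831_at, Ctsl and both Lamp2 probe sets, and treated cells added Ggh and Hexa 94840_at. The 2 references share the newly transcribed arrays, so their differences are not independent of each other. By mean level of the brightest probe set, the 2 newly transcribed groups were the lowest of the 6 groups for all 9 genes. The starved and treated groups of a kind overlapped, except for Ctsl in newly transcribed RNA.

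Amplified against unamplified total RNA, a comparison without the newly transcribed arrays, showed how far the 2 references themselves differed. Ggh was higher after amplification by 1.89 ± 0.25 (n = 15, limma adjusted p = 0.000148), and Lamp2 100136_at by 0.62 ± 0.21 (adjusted p = 0.048). Ctsb 94831_at was lower, at -0.95 ± 0.30 (adjusted p = 0.034). These 3 were called out of 14, where 20.3% of all probe sets were called in either direction and 9.76% lower, so the count is near the background. Of the 3, the Ggh call held without each array in turn. The Lamp2 call was lost without amplified starved array 1 or 3, amplified treated array 1, 2 or 4, total starved array 1, 2 or 3, or total treated array 1, 3 or 4. The Ctsb call was lost without amplified starved array 1 or 3, amplified treated array 1 or 4, total starved array 2, 3 or 4, or total treated array 2, 3 or 4. Scaling the arrays to 1 median in place of quantile normalisation ended the Ctsb call, at -0.55, and added Ctsl at 0.78 and Lamp1 at 0.59. The remaining members had differences between -0.34 for Ctsd and 0.61 for Ctsb 92256_at.

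The 2 array clusters showed in the members as well. In newly transcribed RNA Lamp2 101590_at was higher by 1.57 in cluster 1 than in cluster 2, with ranges of 9.62 to 10.30 and 7.80 to 8.60, and in amplified total RNA by 1.56, with ranges of 11.07 to 11.30 and 9.46 to 9.89. Ctsb 94831_at went the other way, at -1.20 and -1.24, as did Ctsd at -0.90 and -0.74. Hexa 94840_at had -0.65 and -1.14, and Gusb -0.43 and -0.91. Lamp1 had 0.15 and -0.03. Genes of this 1 organelle thus differed in direction between clusters. The clusters were defined from all probe sets including these, so the values are a description. Within each cluster the differences of newly transcribed from amplified total RNA stayed negative for 13 of 14 probe sets in cluster 1 starved and for 14 of 14 in the other 3 cases. Their medians were -1.10 and -1.21 starved and -1.20 and -1.51 treated for clusters 1 and 2, with 1 amplified starved array in cluster 2.

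**Figure D3:**
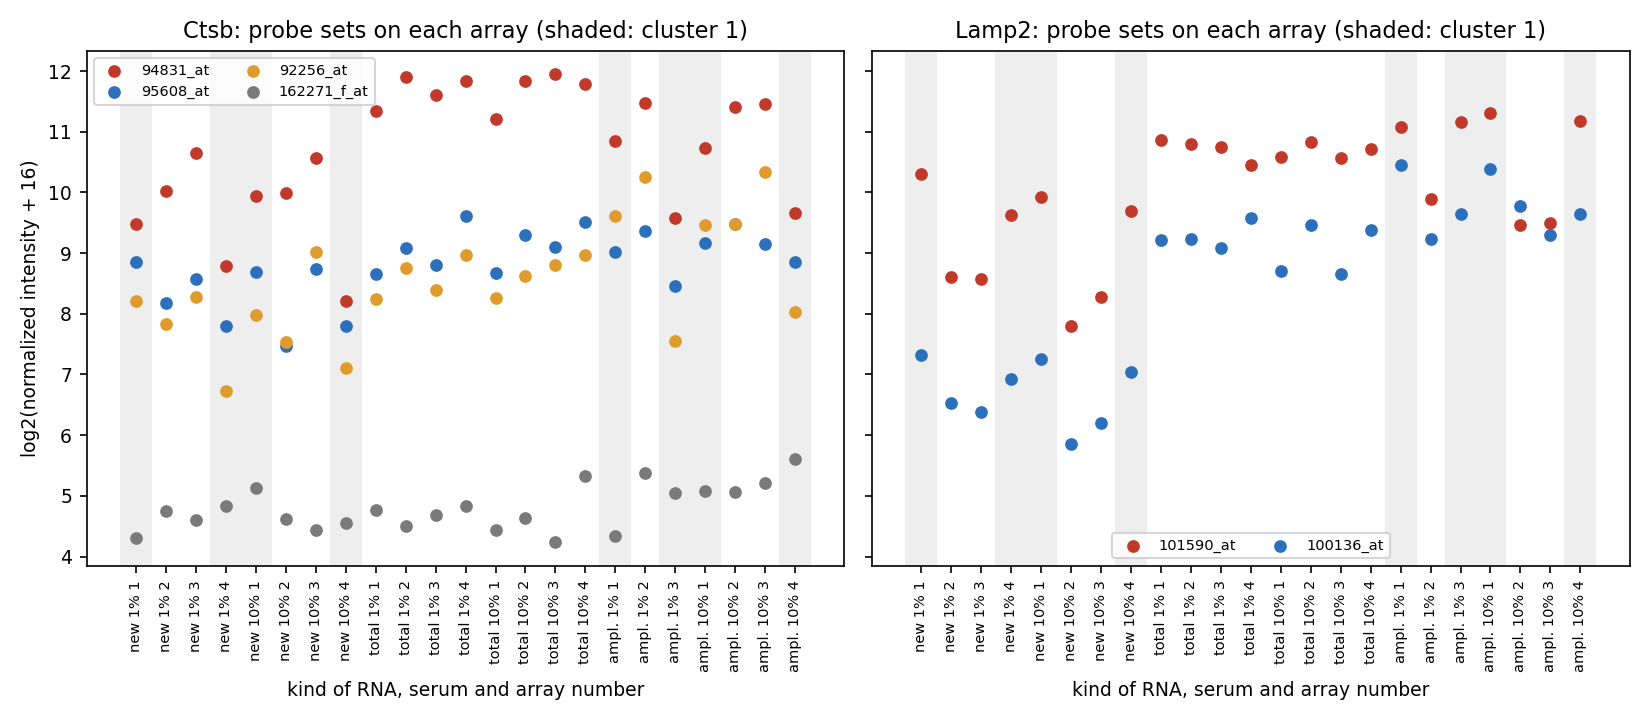
Levels of the 4 Ctsb and 2 Lamp2 probe sets on each of the 23 arrays, as log2(normalised intensity + 16), with the arrays of cluster 1 shaded. Lamp2 101590_at is high on shaded newly transcribed and amplified arrays and Ctsb 94831_at is low on them, and the gap between the Lamp2 probe sets is widest in newly transcribed RNA.

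The design asks how the RNA of these cells changes within 2 h of serum. None of the 14 probe sets passed limma's adjusted p of 0.05 in any kind of RNA, where the share of all probe sets called was 0% for newly transcribed, 0.121% for total and 0% for amplified total RNA. At an unadjusted p under 0.05 there were 2 of the 14 in newly transcribed RNA (800 of all 12422), 0 in total RNA (614) and 0 in amplified total RNA (175). The immediate early genes fixed as a check of the treatment were higher in treated cells for 8 of 8 in all 3 kinds of RNA, with a median of 1.56 in newly transcribed RNA, and 5 of them were called in total RNA.

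In newly transcribed RNA 12 of 14 differences with serum were negative, with a median of -0.19 against 0.01 for all probe sets. Without treated array 2 the count was 7 of 14 and the median -0.05, and without starved array 1 the median was -0.03. Lamp1 had the largest difference, -0.51 ± 0.26 (95% interval -1.11 to 0.08, n = 8, limma adjusted p = 0.86), and its treated arrays overlapped with the starved ones. Taken by array number, treated was lower than starved in 4 of 4 pairs, by -0.46, -0.72, -0.59 and -0.29. Hexa 94840_at had -0.50 ± 0.31 (adjusted p = 0.93) and was also lower in 4 of 4 pairs, by -0.53, -0.30, -0.55 and -0.63. Ctsl had -0.41 ± 0.15 (adjusted p = 0.67), lower in 4 of 4 pairs, and its treated arrays, given above, all lay below the starved ones. The dim Hexa probe set (-0.34 ± 0.14, adjusted p = 0.74) was the other one without overlap, beside 1.7% of all probe sets lower without overlap.

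Same-numbered newly transcribed arrays deviated together from their group means, with correlations of 0.70 to 0.80 over all probe sets, so the fit with the replicate block bears on these values. It called 216 probe sets (1.74%) against 0 without the block, and none of the 14. The blocked values were -0.51 ± 0.12 for Lamp1 (adjusted p = 0.085), -0.50 ± 0.11 for Hexa 94840_at (adjusted p = 0.079), -0.41 ± 0.13 for Ctsl (adjusted p = 0.15) and -0.34 ± 0.11 for Hexa 162488_at (adjusted p = 0.16). The block left the sizes as they were and narrowed the errors of Lamp1 and Hexa 94840_at most among these 4. Ctsd had -0.05 ± 0.45 without and -0.05 ± 0.14 with the block. Ggh had -0.23 ± 0.29, Cpq -0.14 ± 0.31 and Gusb -0.10 ± 0.38 without the block.

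In total RNA the same genes were close to 0. Lamp1 had -0.05 ± 0.12 (95% interval -0.33 to 0.22), Ctsl 0.02 ± 0.12 (-0.26 to 0.30) and Hexa 94840_at 0.01 ± 0.19 (-0.43 to 0.45), so that changes of 1 log2 unit in either direction lie outside these intervals. Ggh had the highest value, 0.23 ± 0.37, higher in treated cells in 4 of 4 pairs, and Lamp2 100136_at the lowest, -0.23 ± 0.22. The median was 0.02, with 6 negative and 8 positive. With the block limma called 60 probe sets in total RNA (0.483%) in place of 15, again with none of the 14. In amplified total RNA 5 were negative and 9 positive, with a median of 0.13, and the intervals were wide, such as -1.31 to 1.76 for Hexa 94840_at.

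The difference of the responses was tested itself. For newly transcribed minus total RNA, Ctsl had -0.43 ± 0.19, Lamp1 -0.46 ± 0.29, Hexa 94840_at -0.51 ± 0.38 and Ggh -0.47 ± 0.50, each with an adjusted p of 0.999. Of the 14, 10 were negative and 4 positive, with a median of -0.21. None was called, beside 0% of all probe sets (299 at an unadjusted p under 0.05, 2 of them members, Ctsl and the dim Hexa probe set). With the replicate number within each kind as a block, the sizes were the same and the errors smaller. Lamp1 had -0.46 ± 0.15 (limma adjusted p = 0.36), Hexa 94840_at -0.51 ± 0.14 (0.34), Ctsl -0.43 ± 0.17 (0.42) and Ggh -0.47 ± 0.21 (0.46). The blocked fit also called none, beside 0% of all probe sets. At an unadjusted p under 0.05 it had 1343 probe sets, 4 of them members. For newly transcribed minus amplified total RNA all 14 were negative without the block and 12 with it, with medians of -0.25 and -0.33, and none was called, beside 0% of all (201 at an unadjusted p under 0.05). These use the same newly transcribed arrays as the response above and add no separate evidence for its direction. With values as deposited, where no scaling is applied, the median of all probe sets itself with serum moved by -0.18 for newly transcribed, 0.21 for total and 0.25 for amplified RNA, and the member medians were -0.53, 0.41 and 0.60.

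**Figure D4:**
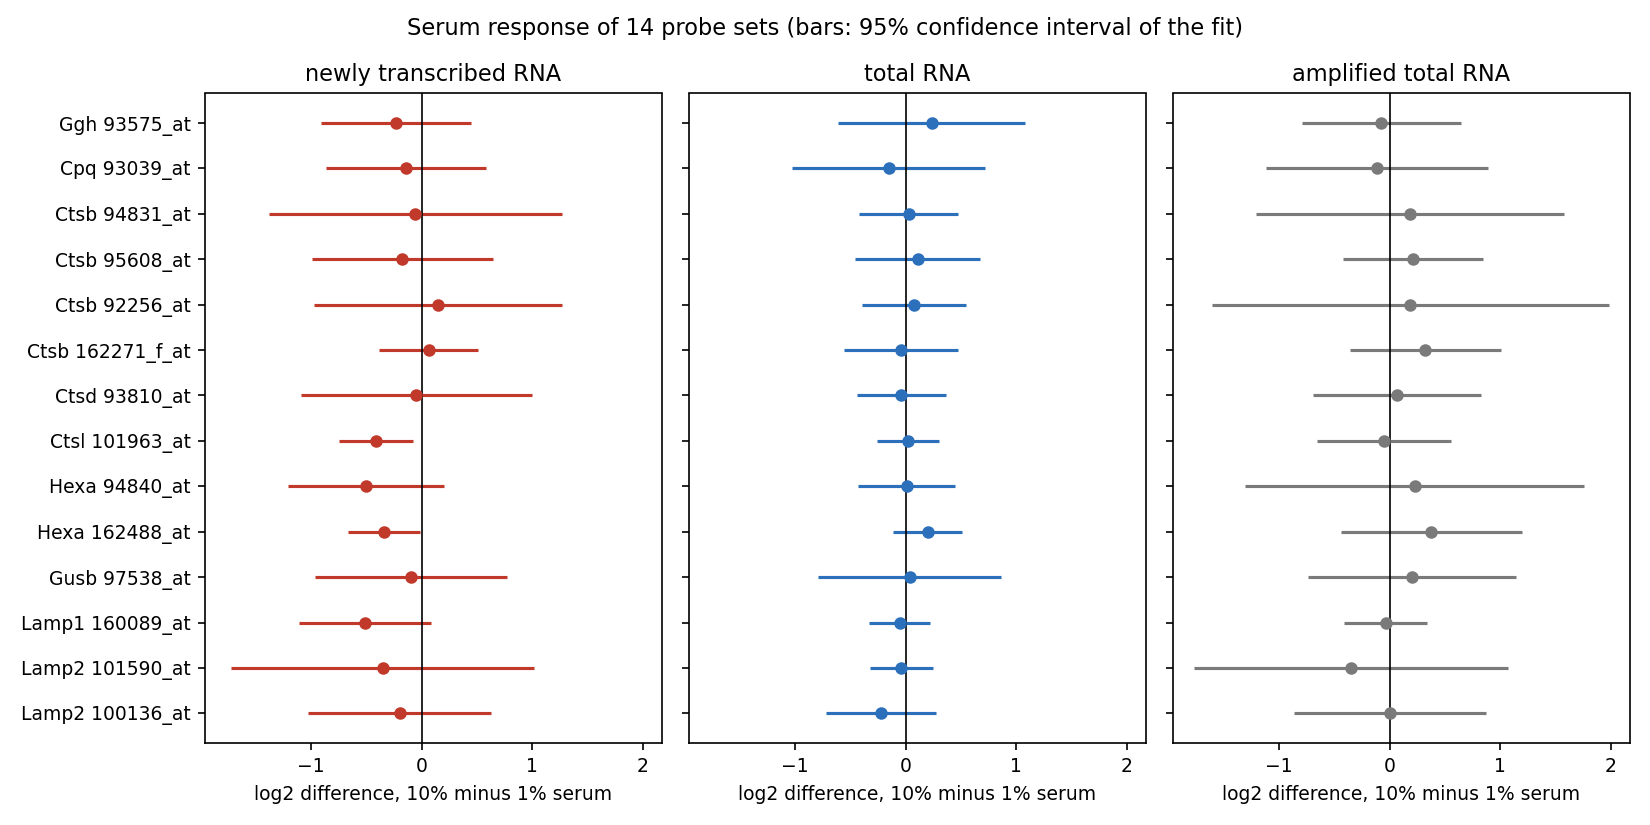
Log2 difference of 10% minus 1% serum for the 14 probe sets in newly transcribed, total and amplified total RNA, with 95% confidence intervals from limma without a block. Of the 14 intervals in newly transcribed RNA, those of Ctsl and Hexa 162488_at lie below 0, and every interval in total and amplified total RNA spans 0.

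Other genes of the organelle were counted from lists, each gene by its brightest probe set. These lists, like the members, were chosen with earlier results of these arrays known. Their counts and calls in newly transcribed against amplified total RNA are therefore a description and no separate evidence for the member differences. Of 50 further hydrolases and luminal proteins, 33 were measured. In newly transcribed against amplified total RNA 31 of them were negative in starved and 30 in treated cells, with medians of -1.20 and -1.38, where the median over all genes was 0.00 and 0.03. Limma called 4 lower and 0 higher in starved cells, where 2% of all probe sets were called lower and 3.17% in either direction. These included the aminopeptidase cathepsin Ctsh (-2.28 ± 0.33, adjusted p = 0.027), the fucosidase Fuca1 (-2.10 ± 0.37, adjusted p = 0.037) and the cathepsin Ctsf (-1.96 ± 0.35, adjusted p = 0.038). In treated cells, where 2.83% of all probe sets were called lower and 4.05% in either direction, it called 8 lower and 0 higher, led by Ctsf (-2.50 ± 0.40, adjusted p = 0.017), the beta-galactosidase Glb1 (-2.49 ± 0.50, adjusted p = 0.036) and Ctsh (-2.46 ± 0.26, adjusted p = 0.0059).

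Proteins of the lysosomal membrane, pump and transport machinery had medians nearer to 0. Of 20 further membrane proteins 14 were measured, with medians of -0.28 and -0.25. None was called in starved cells and 1 was called lower in treated cells, where 2% and 2.83% of all probe sets were called lower. It was Scarb2, the receptor that carries beta-glucocerebrosidase to lysosomes (-1.66 ± 0.23, adjusted p = 0.011). Scarb2 was also called higher in amplified than in unamplified total RNA (0.59 ± 0.16, limma adjusted p = 0.020), so that the 2 references differed for it. The vacuolar proton pump, which acidifies the organelle, had 15 of 17 subunits measured and medians of 0.01 and -0.08. Its 2 calls, both in treated cells, were Atp6v0e (-1.52 ± 0.29, adjusted p = 0.030) and Atp6v1e1 (-0.91 ± 0.18, adjusted p = 0.036).

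For the sorting machinery 17 of 21 genes were measured, with medians of 0.11 and -0.10. Vps41, a subunit of the HOPS tethering complex, was lower in both sera (-1.63 ± 0.25, adjusted p = 0.031, and -1.80 ± 0.29, adjusted p = 0.018). Ap1g1, a subunit of the AP-1 clathrin adaptor, was higher in starved cells (1.28 ± 0.23, adjusted p = 0.038). Of the TFEB family and autophagy genes 17 of 20 were measured, with medians of 0.35 and 0.27. Atg12, a ubiquitin-like protein of autophagosome formation, was higher in starved cells (1.49 ± 0.30, adjusted p = 0.048), and Map1lc3b, which coats autophagosomes, was lower in treated cells (-1.29 ± 0.20, adjusted p = 0.016). Among 4 of 7 cystatins measured, the secreted inhibitor Cst3 was lower in both sera (-1.73 ± 0.31, adjusted p = 0.037, and -1.86 ± 0.27, adjusted p = 0.013). All calls in starved cells, over all probe sets, were lost without amplified starved array 2 or without newly transcribed starved array 2 or 3. In treated cells the calls of Ctsh, Scarb2 and Cst3 held without each array in turn. Those of Ctsf and Vps41 were lost without amplified or newly transcribed treated array 2 or 3, and that of Map1lc3b without amplified treated array 2 or 3 or newly transcribed treated array 3. The Atp6v0e call was lost without amplified treated array 2, 3 or 4 or newly transcribed treated array 2 or 3. Those of Glb1 and Atp6v1e1 were lost without any 1 array other than amplified treated array 1. A pseudocount of 1 ended the treated calls of Glb1, Atp6v0e, Atp6v1e1 and Map1lc3b, and that of Atp6v1e1 was also lost with arrays scaled to 1 median and with dim probe sets left out. With values as deposited no probe set was called in this comparison, starved or treated. None of these lists held a gene called with serum in any kind of RNA. The lists were not tested against each other.

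**Figure D5:**
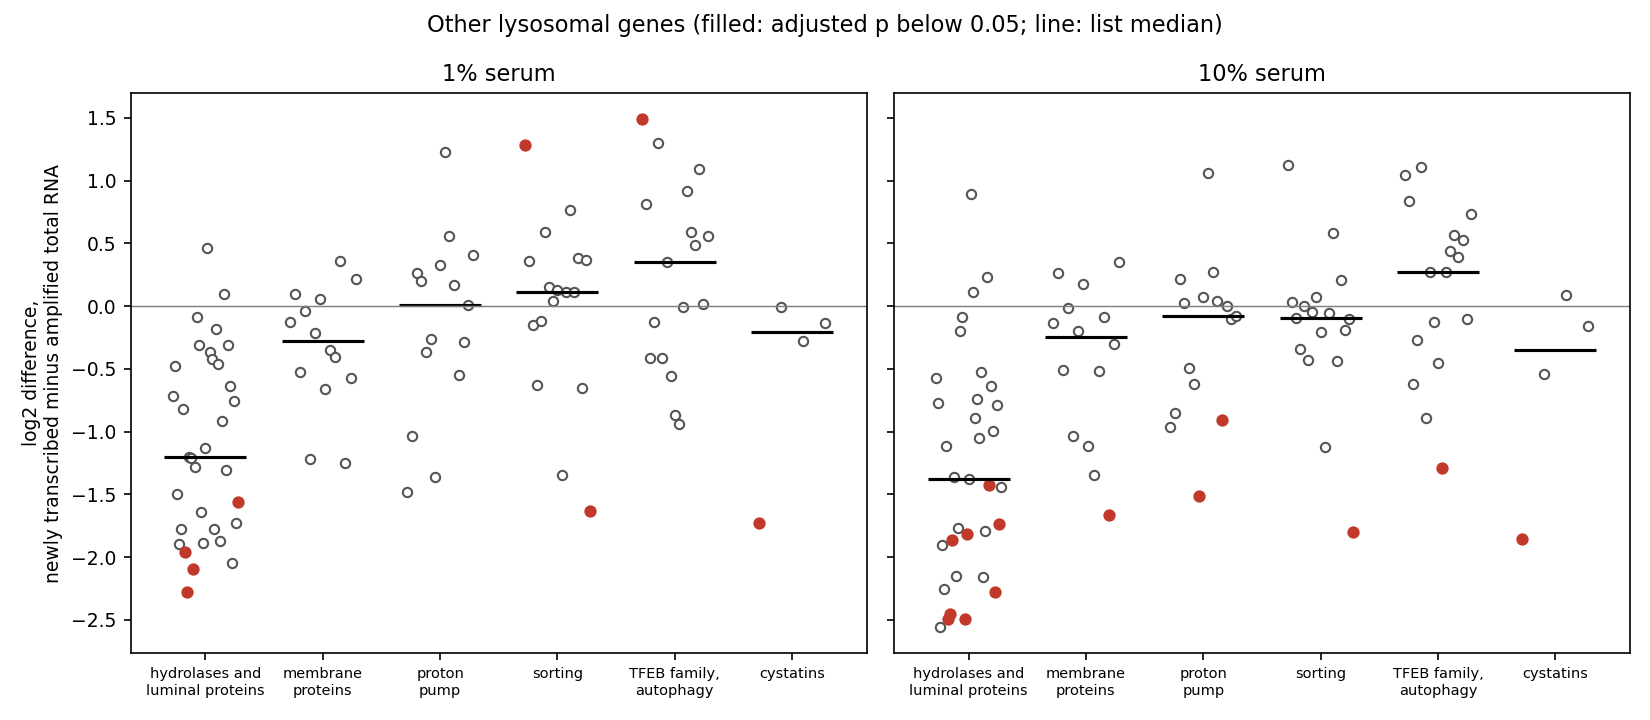
Log2 difference of newly transcribed minus amplified total RNA for each measured gene of 6 further lysosomal lists, in 1% serum (left) and 10% serum (right); filled points passed limma's adjusted p of 0.05 and lines are list medians. Hydrolases and luminal proteins have medians of -1.20 and -1.38, and the other lists lie nearer to 0.

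The mean profile of the 9 genes over the 23 arrays, each by its brightest probe set and standardised, was compared with every other gene. Those most like it by Pearson correlation were Park7 (0.95), Rnase4 (0.94), Nucb2 (0.94), Rpn2 (0.94) and Lancl1 (0.94). The 23 arrays share 3 kinds of RNA, their clusters and their serum groups, so the correlations are a description. The difference of newly transcribed from amplified total RNA was -2.08 starved and -2.49 treated for Park7, and -1.95 and -2.57 for Rnase4. The members' own correlations with the profile ran from 0.68 for Lamp2 to 0.90 for Gusb and Ctsl.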

How the data were processed

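The deposited values were 1 linear intensity per Affymetrix probe set for 12488 probe sets on 23 arrays. Per the labels, RNA was reverse transcribed, amplified linearly and labelled with biotin by a T7 method. Neither the summarisation software nor a scaling step is named in the sources used here. Samples were grouped by title into 6 groups. No arrays held identical values.

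From these intensities, arrays were quantile normalised, 16 was added and log2 taken. The 66 control probe sets were left out, which left 12422. Two-sided tests came from limma 3.58.1 under R 4.3.3, by lmFit then eBayes with Benjamini-Hochberg adjustment over 12422 probe sets, for 8 comparisons, each on the arrays of its groups and without a block, and the fit was tested on simulated data. Values are log2 differences ± SE of the fit unless stated. With amplified treated and starved arrays numbered 1 to 4 and 1 to 3, the number of arrays limits the precision. The titles' term biological replicates does not say whether cultures or embryos were separate, so p-values cover array-to-array spread only, which may be technical.

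Members and gene lists were chosen with earlier results of these data known. Named genes were all 9 members, called genes of each other list taken from its 3 largest differences, and the 5 most like profiles. Not all of those called genes were named, mainly for amplified against unamplified total RNA. No set tests were run. Alternatives were values as deposited, arrays scaled to 1 median, a pseudocount of 1, a minimum mean of 50 (which keeps 12 of the 14 probe sets), a replicate block, array cluster as a block, and leaving out each array.

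Replicate numbers come from the titles, which do not say what a number shares. Same-numbered arrays departed from their groups' means with correlations of 0.70 to 0.80 for newly transcribed RNA with serum, 0.23 to 0.70 for total RNA, and 0.56 to 0.73 for newly transcribed against amplified treated arrays. With every pair above 0.1, these were taken as paired. Amplified arrays with serum (0.69, 0.76 and -0.47) and newly transcribed against amplified starved arrays (0.37, 0.68 and -0.39) were not.

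Promoters came from RefSeq (GRCm38.p6).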

Additional observations from a re-analysis of the deposited data

Results flagged for a closer look

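In 5 of 70 combinations of probe set and group with 4 arrays, 1 array stood apart from the others by Dixon's criterion at the 95% level. Chance gives about 1 in 20. Values are log2(normalised intensity + 16).

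Ggh read 6.44 on newly transcribed starved array 1, above the other 3 at 5.45 to 5.54. Cpq read 6.27 on newly transcribed starved array 4, above 5.36 to 5.5. On that same array the dim Hexa probe set 162488_at read 4.75, below 4.90 to 4.92. In total starved RNA, Hexa 94840_at read 9.53 on array 1, below 10.13 to 10.24, and Lamp1 read 12.11 on array 3, above 11.91 to 11.94. Without newly transcribed starved array 1 the Ggh difference from amplified total RNA was -3.60, and without array 4 that of Cpq was -2.95.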

How the results depend on the processing

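Sqstm1, an autophagy receptor, was called lower after amplification (-0.45 ± 0.13, limma adjusted p = 0.026) and had 0.0019 with arrays scaled to 1 median, without a call. None of the 14 probe sets changed direction between settings in which it was called. Those called in neither setting changed sign more often, as in 19 of 112 values of the serum response in newly transcribed RNA when 1 array was left out. No member was called with serum under any alternative run, in any kind of RNA or in the differences of responses.

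Counts over all probe sets moved more. With values as deposited, calls fell from 394 to 0 for newly transcribed against amplified starved RNA (members from 4 to 0), from 503 to 0 treated (members from 5 to 0), from 2516 to 353 for amplified against unamplified RNA (24 higher and 329 lower, members from 3 to 0), and from 15 to 2 for serum in total RNA. A pseudocount of 1 gave 0 starved (members 0), 231 treated and 7 for serum in total RNA. Scaling to 1 median gave 255 starved. Leaving out dim probe sets gave 25 for serum in total RNA. The replicate block gave 216 for serum in newly transcribed RNA in place of 0, 60 in total RNA, 2626 treated (members 11) and 0 starved (members 0), where the numbers do not pair the arrays. The block changed no other call by the threshold of 1.5 times. The array cluster as a block gave 45 for serum in newly transcribed RNA, 1479 starved and 2257 treated (members 9), and was not run for comparisons with unamplified total RNA, whose arrays were not clustered.

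Leaving out 1 array gave 0 to 237 starved (members 0 to 3), 147 to 619 treated (members 4 to 6), 2064 to 2827 for amplified against unamplified RNA (members 1 to 3), 1 to 19 for serum in total RNA, and 0 to 1 in newly transcribed RNA. The cause of these shifts was not tested. Dim probe sets, here Ctsb 162271_f_at, Hexa 162488_at and newly transcribed Ggh and Cpq, limit the size that the scale can show.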

Other observations

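Amplified against unamplified total RNA was also read for the other lysosomal lists. Of 17 sorting genes 2 were called higher and 2 lower, of 17 TFEB family and autophagy genes 1 and 1, and of 4 cystatins 0. Over all probe sets 20.3% were called, and the lists were not tested against this share. Of 33 further hydrolases and luminal proteins limma called 3 higher and 5 lower after amplification, where 20.3% of all probe sets were called. Sumf1, which activates sulfatases, was higher (1.45 ± 0.11, adjusted p = 3.36e-06). Psap, the precursor of the saposins, was lower (-1.34 ± 0.13, adjusted p = 8.53e-06), and so was Ids, iduronate 2-sulfatase (-1.38 ± 0.24, adjusted p = 0.00098). Of 15 proton pump subunits 1 was called higher and 3 lower, among them Atp6v0a1 (-1.86 ± 0.20, adjusted p = 3.28e-05). Of 14 membrane proteins 3 were called higher, among them Slc11a2 (0.99 ± 0.22, adjusted p = 0.0051) and Scarb2 (0.59 ± 0.16, adjusted p = 0.020). The 1 called lower was Clcn7, a chloride-proton exchanger (-1.23 ± 0.22, adjusted p = 0.0013). The calls of all genes named here held without each array in turn. Those of Sumf1, Psap, Slc11a2 and Scarb2 were lost with values as deposited, and that of Scarb2 also with a pseudocount of 1. The medians of the hydrolase, pump and membrane lists were -0.34, 0.29 and -0.07, beside 0.02 for all genes. Scaling to 1 median shifted the split of all calls from 1303 higher and 1213 lower to 1690 and 804.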
